A study of Mus musculus with 11 samples.

Results

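Mitochondrial entry of pyruvate was examined in gonadal white adipose tissue (WAT) through 10 genes, all of them listed among the 12787 genes of the RNA sequencing data. The members were taken by gene symbol, with no threshold on their values. They encode the mitochondrial pyruvate carrier (Mpc1, Mpc2), the pyruvate dehydrogenase complex (Pdha1, Pdhb, Dlat, Dld), the kinases that switch this complex off (Pdk1, Pdk2, Pdk4) and pyruvate carboxylase (Pcx). Gonadal WAT was compared between 5 HFD control mice and 6 mice given HFD with iodomethylcholine (IMC), a drug directed at gut bacteria that blocks the conversion of choline to trimethylamine. All mice were C57Bl6/J males fed a 60% high fat diet for 20 weeks (from the study's methods), with 0.06% w/w IMC mixed into it in the treated group. Each mouse gave 1 library. A further control sample failed quality control and was dropped by the authors. The sample labels give no age, and no genotype or transgene separates the groups, so the drug in the diet is the labelled difference between them.

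Pyruvate made in the cytosol crosses the inner mitochondrial membrane through a carrier built from MPC1 and MPC2. In the matrix it meets competing enzymes. The dehydrogenase complex converts it to acetyl-CoA and is inactivated when PDK kinases phosphorylate its decarboxylase, a block that PDP phosphatases lift. Pyruvate carboxylase, which carries biotin, converts it to oxaloacetate instead. White adipocytes are rich in pyruvate carboxylase, since oxaloacetate is needed to carry acetyl units out of mitochondria as citrate for fatty acid synthesis and to make glycerol phosphate for triglyceride.

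The promoter windows of Pcx and of the kinases are shown first. They were picked after Pcx and Pdk2 were seen to rise and to vary together between mice, whereas Pdk1 did not pass the test. Each window holds the 250 bases before a transcript start in RefSeq (GRCm38.p6), written 5′ to 3′ on the strand of the gene. Where a gene has more than 1 window, the one farthest upstream is shown. The Pdk1 window runs to position 71873223, past the start of the whole gene at 71873215. The windows are chr19:4510222-4510471 (+) for Pcx, chr11:95041372-95041621 (-) for Pdk2, chr6:5496279-5496528 (-) for Pdk4 and chr2:71872974-71873223 (+) for Pdk1. Capitals mark CACGTG, the E-box letters, and CCAAT on either strand, where ATTGG is its reverse.
Pcx: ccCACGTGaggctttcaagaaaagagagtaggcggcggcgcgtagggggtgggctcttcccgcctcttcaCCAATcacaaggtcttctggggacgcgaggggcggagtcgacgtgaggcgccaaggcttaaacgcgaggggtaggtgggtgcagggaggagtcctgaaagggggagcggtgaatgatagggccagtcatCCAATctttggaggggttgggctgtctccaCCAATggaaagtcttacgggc
Pdk2: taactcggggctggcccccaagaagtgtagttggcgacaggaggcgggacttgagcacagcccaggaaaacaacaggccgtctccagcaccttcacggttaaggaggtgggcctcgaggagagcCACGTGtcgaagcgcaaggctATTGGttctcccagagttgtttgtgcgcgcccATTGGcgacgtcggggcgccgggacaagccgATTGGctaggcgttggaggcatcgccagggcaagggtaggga
Pdk4: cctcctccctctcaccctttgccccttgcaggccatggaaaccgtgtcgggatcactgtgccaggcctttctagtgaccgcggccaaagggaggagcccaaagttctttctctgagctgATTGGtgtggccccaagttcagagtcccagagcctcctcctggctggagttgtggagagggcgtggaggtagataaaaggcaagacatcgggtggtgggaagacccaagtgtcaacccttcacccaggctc
Pdk1: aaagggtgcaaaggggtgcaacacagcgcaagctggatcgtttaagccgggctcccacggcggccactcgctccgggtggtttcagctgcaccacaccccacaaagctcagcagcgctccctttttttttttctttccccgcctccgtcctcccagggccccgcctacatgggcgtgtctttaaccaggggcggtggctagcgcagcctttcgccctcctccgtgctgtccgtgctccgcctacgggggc
CACGTG occurred once in the Pcx window shown, with its start at position -248 from the transcript start, and once in the Pdk2 window shown at -126. A second RefSeq start of Pcx, of Pdk2 and of Pdk1 each has a window with neither CACGTG nor CCAAT. Which start is used in this tissue was not tested. The windows with CACGTG were 2 of the 14 found for the 10 genes. Of all 32851 RefSeq windows of this length, 6.02% held these letters. Both windows also held 3 copies of CCAAT, at -180, -51 and -21 for Pcx and at -105, -73 and -42 for Pdk2. The Pdk4 window had 1 copy, at -131, and the Pdk1 window had none. Among the windows not shown, that of Pdhb also held 3 copies, at -101, -60 and -12. Those of Dlat and Pdha1, which rose as well, held none. CCAAT was present in 7 of the 14 windows and in 33.8% of all windows. GGGCGG, the GC box, was in 7 of 14 windows against 32.7% of all windows, and AGGTCA, the nuclear receptor half-site, was in 1 of 14 against 14.0%. The GC content of the member windows ran from 38.4% to 73.6%, in most of them above the median of 52.4% over all windows. The shares of motifs were not adjusted for it. No window held TCAAGGTCA, TGTTTAC or CGCATGCG, which were in 0.387%, 3.17% and 1.55% of all windows. The longer TCAAGGTCA contains AGGTCA, and no other pair of these motifs contains each other. These are matches of letters in 250 bases, not measured binding sites. Dlat and Mpc2, the members closest in variation within groups (r = 0.93), had no CACGTG in their windows. Whether any of these letters bear on the levels of the genes was not tested.

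From 22320022 to 25155366 reads per library lay on the listed genes, and the upper quartile of log2 CPM (CPM, reads per scaled library as the authors set it by the upper quartile) was 6.13 in every mouse. The tissue label was checked against marker genes. All 15 adipocyte markers were listed, and none of the 6 epididymal markers and none of the 7 T and B cell markers was. Adipocyte markers moved with the groups, with 13 of 15 higher and 0 lower under IMC, and their mean ran from 9.74 to 10.25 log2 CPM in HFD mice and from 10.59 to 10.84 in IMC-treated mice. Macrophage markers moved the other way, with 0 higher and 12 of 14 lower, and their mean ran from 9.33 to 9.61 in HFD mice and from 8.61 to 9.15 in IMC-treated mice. Of 15 skeletal muscle markers 9 were not listed, among them Ckm and Ttn, and the summed level of the other 6 was 25.6 to 38.6 CPM in HFD mice and 53.6 to 82.8 in IMC-treated mice, with 4 higher and 0 lower. Of all genes, 20% were called higher and 21.0% lower. In bulk tissue, fewer cells of a type and less RNA per cell cannot be told apart.

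In IMC-treated mice, 7 of the 10 genes were higher and 0 were lower (limma on the deposited log2 CPM, Benjamini-Hochberg adjusted p under 0.05 over all genes), although relative to the mean of the adipocyte markers 0 were higher and 9 were lower. Subtracting that mean shifts every gene by -0.74, and on that scale 0.970% of all genes were called higher and 90.9% lower, so the 9 of 10 is near the background share. Pcx rose most, 1.63-fold, and Mpc2, Pdk2, Dlat, Pdha1, Dld and Pdhb rose between 1.16-fold and 1.41-fold. Pdk1, Pdk4 and Mpc1 did not pass the test. Among all 12787 genes, 20% were called higher, 21.0% lower and 40.9% either way, so the share of members called higher was above the background share. The median log2 fold change was 0.36 over the 10 genes and -0.03 over all genes. For 5 of the 10 genes every IMC-treated mouse lay above every HFD mouse, and over all genes 23.1% had groups that did not overlap in either direction.

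**Figure D1:**
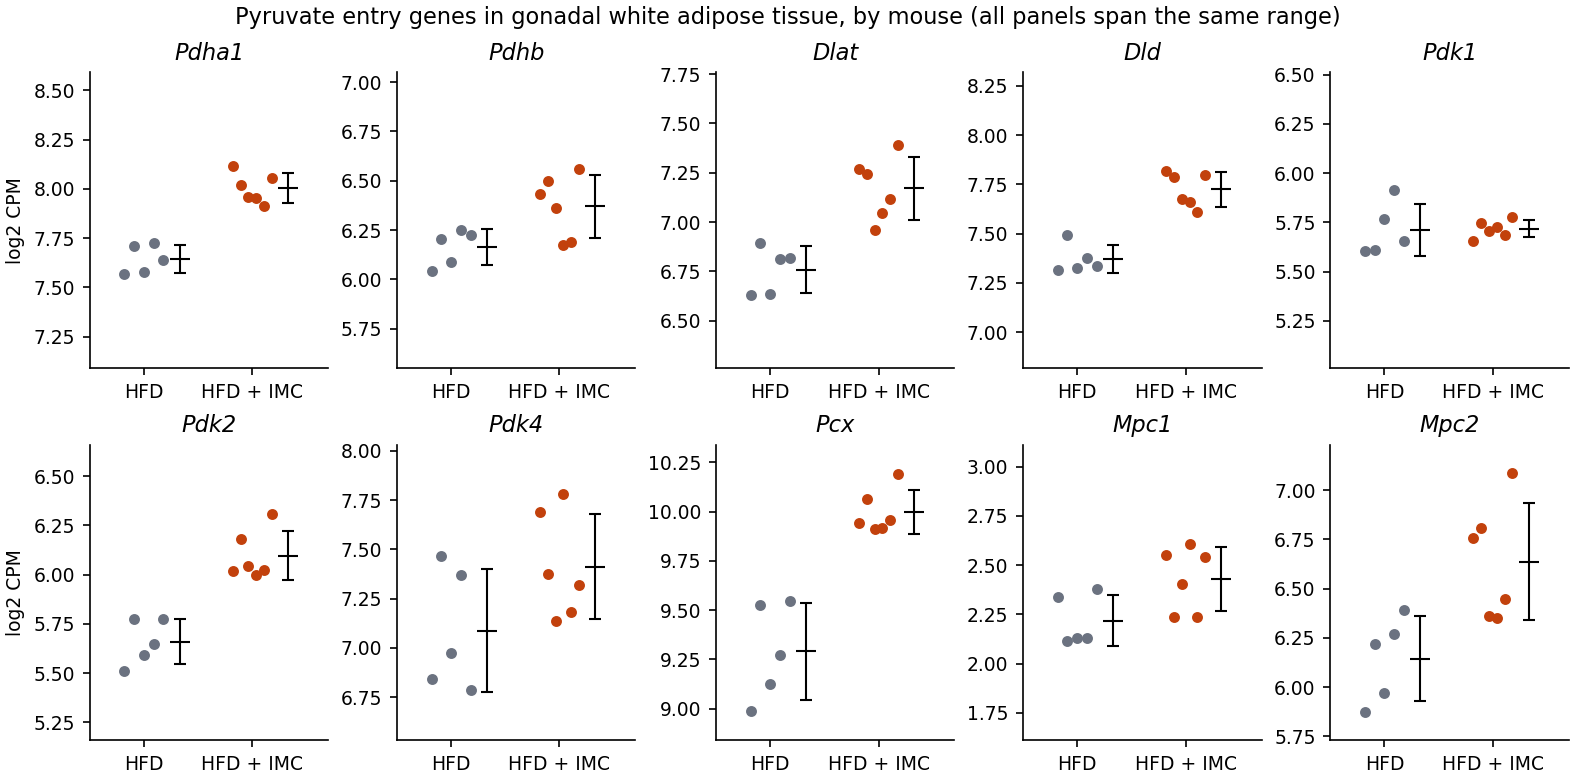
Level of each pyruvate entry gene in log2 CPM, with 1 point per mouse for 5 HFD and 6 HFD + IMC mice, and a bar at the mean with its SD; every panel spans the same range on the log2 scale. The groups are separate for Pdha1, Dlat, Dld, Pdk2 and Pcx and overlap for Pdhb, Pdk1, Pdk4, Mpc1 and Mpc2, while relative to the adipocyte marker mean 9 of the 10 genes were lower, as were 90.9% of all genes.

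The dehydrogenase complex begins with a decarboxylase whose alpha subunit, encoded by Pdha1, holds the sites that the kinases phosphorylate. Pdha1 (chrX:160122219-160138430) had 7.57, 7.71, 7.58, 7.72 and 7.64 log2 CPM in HFD mice 1 to 5, the order used for every gene. In the IMC-treated mice its lowest, median and highest values were 7.91, 7.99 and 8.12. The groups did not overlap, and the log2 fold change was 0.36 (SE 0.05, limma adjusted p = 0.000156), which is 1.28-fold with a 95% interval from 1.19 to 1.38. Exons of Map3k15 on the opposite strand cover 603 exon bases of Pdha1, and the strand setting of the read count is not given in the sources used here.

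Pdhb, the beta subunit of the same decarboxylase (chr14:8165991-8173303), had 6.04, 6.21, 6.09, 6.25 and 6.22 log2 CPM in HFD mice. Its values in IMC-treated mice ran from 6.17 to 6.56 with a median of 6.40. Here 3 HFD mice lay above the lowest IMC-treated mouse and 2 IMC-treated mice below the highest HFD mouse. The log2 fold change was 0.21 (SE 0.07, limma adjusted p = 0.0392), the smallest of the 7 called members, and the call was lost when HFD mouse 1, 2 or 3 or IMC-treated mouse 1, 2, 3 or 6 was left out (limma adjusted p from 0.0152 to 0.0994 over the 11 fits).

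Dlat encodes the acetyltransferase that forms the core of the complex and carries its lipoyl arms (chr9:50634633-50659780). It had 6.63, 6.89, 6.63, 6.81 and 6.82 log2 CPM in HFD mice, and 6.96, 7.18 and 7.39 as the lowest, median and highest values in IMC-treated mice. The groups were separate by 0.07 log2 units and the log2 fold change was 0.41 (SE 0.08, limma adjusted p = 0.00120). Dld, the dehydrogenase that reoxidises the lipoyl arms and is shared with other complexes (chr12:31331562-31351471), had 7.32, 7.49, 7.33, 7.38 and 7.34 in HFD mice and 7.61, 7.73 and 7.82 in IMC-treated mice. No HFD mouse reached the lowest IMC-treated mouse, and the log2 fold change was 0.35 (SE 0.05, limma adjusted p = 0.000226). Within each mouse, Dld minus Dlat was 0.61 ± 0.08 log2 CPM (SD, n = 5) on the HFD and 0.55 ± 0.10 (SD, n = 6) under IMC, a change of -0.06 that did not pass a two-sided exact permutation test (p = 0.316, adjusted p = 0.421 over the 8 gene pairs compared).

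Of the kinase genes, Pdk2 passed the test and Pdk1 and Pdk4 did not. Pdk2, the kinase found in most tissues (chr11:95026258-95041371), had 5.51, 5.77, 5.59, 5.65 and 5.77 log2 CPM in HFD mice and 6.00, 6.03 and 6.31 as the lowest, median and highest values in IMC-treated mice. The groups were separate by 0.22 log2 units, and the log2 fold change was 0.44 (SE 0.07, limma adjusted p = 0.000375). Pdk1, known as a target of hypoxia signaling (chr2:71873215-71903858), had 5.61, 5.61, 5.76, 5.92 and 5.66 in HFD mice and 5.66, 5.72 and 5.78 in IMC-treated mice. All 6 IMC-treated mice fell inside the range of the HFD mice. The log2 fold change of Pdk1 was 0.01 with a 95% interval from -0.12 to 0.13 (limma adjusted p = 0.943).

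The difference between these kinases within a mouse was tested directly. Pdk1 minus Pdk2 was 0.10, -0.17, 0.17, 0.27 and -0.12 log2 CPM in HFD mice and ran from -0.53 to -0.27 in IMC-treated mice. These differences are not per length, so 0 does not mark equal abundance, but every IMC-treated mouse lay below every HFD mouse. The difference between the groups was -0.43 (two-sided exact permutation test over all assignments of the mice, p = 0.00216, the smallest that 5 against 6 mice can give, adjusted p = 0.0173 over the 8 pairs). The size of Pdk2 relative to Pdha1, its substrate, changed by 0.08 and did not pass (exact permutation p = 0.258, adjusted p = 0.412).

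Pdk4 is the kinase that fasting and fatty acids induce (chr6:5483351-5496278). Its values were 6.84, 7.47, 6.98, 7.37 and 6.79 log2 CPM in HFD mice and 7.14, 7.35 and 7.78 as the lowest, median and highest in IMC-treated mice. HFD mice 2 and 4 had values within the range of the treated group, and the other 3 HFD mice lay below it. The log2 fold change was 0.32 (SE 0.15) with a 95% interval from 0.01 to 0.64 and a limma adjusted p = 0.0940. With 1 mouse left out it ran from 0.25 to 0.42 and limma adjusted p from 0.0352 to 0.209, and the call was gained only without HFD mouse 2. Pdk4 had the widest spread of the members, with an SD within groups of 0.29 log2 CPM against a median of 0.13 over all genes. Within a mouse, Pdk4 minus Pdk2 and Pdk4 minus Pdha1 changed by -0.11 and -0.04, and neither passed the exact permutation test (adjusted p = 0.623 and 0.816).

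Pcx was the most abundant member and the one that rose most (chr19:4510472-4621752). It had 8.99, 9.53, 9.12, 9.27 and 9.55 log2 CPM in HFD mice, and 9.91, 9.95 and 10.19 as the lowest, median and highest values in IMC-treated mice. The groups were separate by 0.37 log2 units, the widest gap among the 10 genes. The log2 fold change was 0.71 (SE 0.10, limma adjusted p = 0.000201), or 1.63-fold with a 95% interval from 1.40 to 1.90. Between 11284 and 28428 reads per library stood behind these values.

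Pcx was also compared with Pdha1 and with Mpc1 within each mouse. Pcx minus Pdha1, which sets carboxylase against the dehydrogenase, was 1.42, 1.82, 1.54, 1.55 and 1.91 log2 CPM in HFD mice and ran from 1.82 to 2.14 in IMC-treated mice. The increase of 0.35 passed the test (two-sided exact permutation p = 0.00649, adjusted p = 0.0260 over the 8 pairs), although HFD mouse 5 lay above the lowest treated mouse. Pcx minus Mpc1 increased by 0.50 (exact permutation p = 0.0108, adjusted p = 0.0289), from 7.07 ± 0.28 (SD, n = 5) to 7.57 ± 0.20 (SD, n = 6). With IMC-treated mouse 2, 3, 5 or 6 left out, the adjusted p for Pcx minus Pdha1 and for Pdk1 minus Pdk2 rose to 0.0635. For Pcx minus Mpc1 it passed 0.05 without any of these or HFD mouse 1, 3, 4 or 5, and reached 0.0762. Leaving out a mouse leaves fewer assignments, which raises the smallest exact p that can be reached. Without IMC-treated mouse 2, 3, 5 or 6, Pdk1 minus Pdk2 still differed by -0.42, -0.44, -0.44 and -0.40, and Pcx minus Pdha1 by 0.34, 0.35, 0.34 and 0.32.

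**Figure D2:**
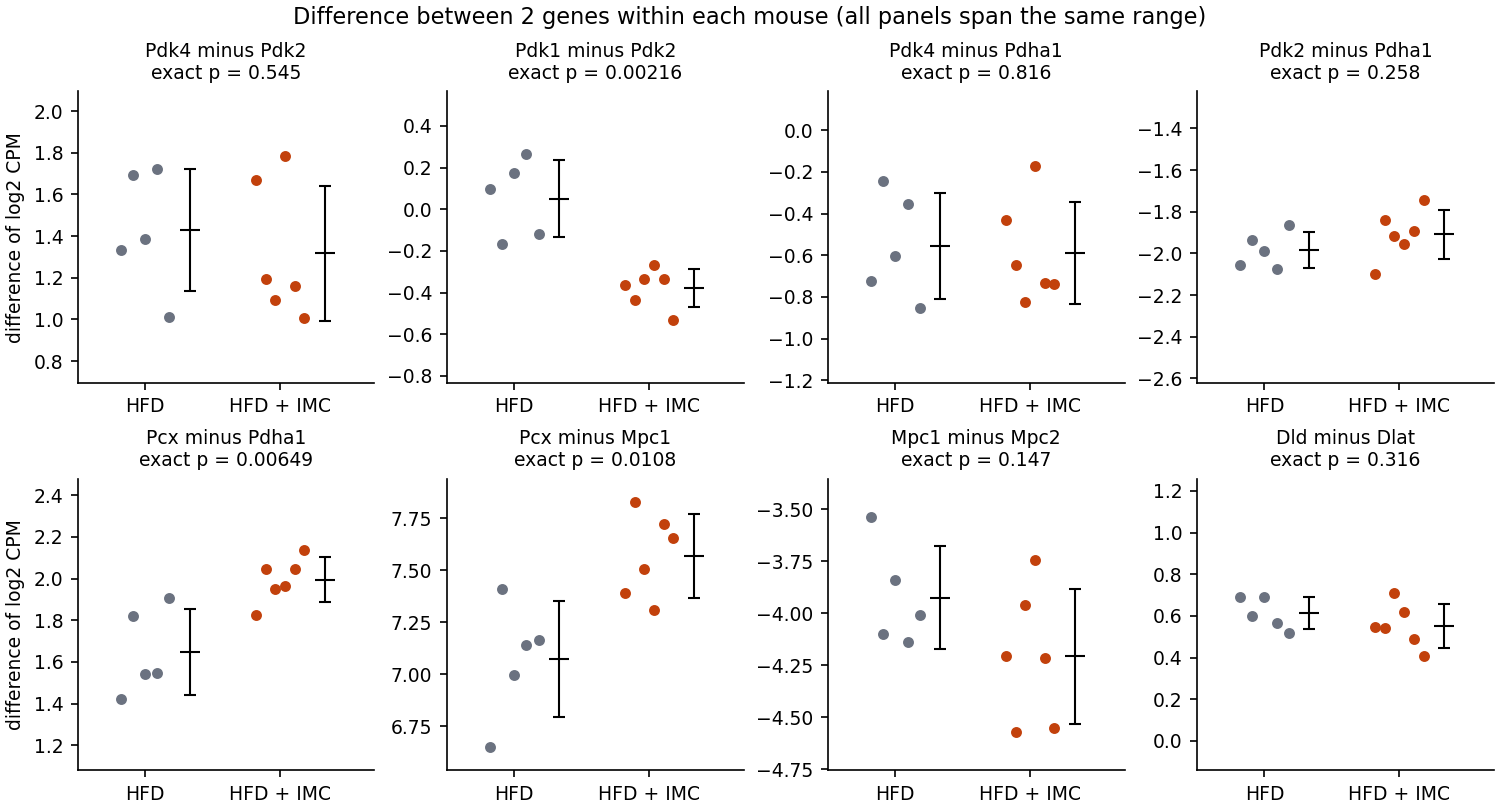
Difference of log2 CPM between paired members within each mouse, with 1 point per mouse, a bar at the mean with its SD, and the unadjusted exact permutation p for 5 HFD against 6 HFD + IMC mice. Only Pdk1 minus Pdk2 separated the groups completely; Pcx minus Pdha1 and Pcx minus Mpc1 also passed after adjustment over the 8 pairs.

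The carrier genes were far apart in level. Mpc2 (chr1:165461260-165481218) had 5.87, 6.22, 5.97, 6.27 and 6.39 log2 CPM in HFD mice and 6.35, 6.60 and 7.09 as the lowest, median and highest values in IMC-treated mice. HFD mouse 5 lay above 2 of the treated mice, and the log2 fold change was 0.49 (SE 0.14, limma adjusted p = 0.0112). Mpc1, the partner without which the carrier does not form (chr17:8283787-8297667), had 2.34, 2.12, 2.13, 2.13 and 2.38 in HFD mice and 2.23, 2.47 and 2.61 in IMC-treated mice. These values overlapped, and the log2 fold change of 0.21 had a 95% interval from -0.01 to 0.43 (limma adjusted p = 0.121). Only 101 to 151 reads per library lay on Mpc1, which limits its precision. Its value is uncertain for a further reason, since 480 of its exon bases are shared with 4930506C21Rik on the opposite strand and the annotation names a pseudogene, Mpc1-ps. Mpc1 minus Mpc2 changed by -0.28 within mice (exact permutation p = 0.147, adjusted p = 0.294).

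Levels of different genes were compared per kilobase of exon (GENCODE M21, mm10). Pcx was highest, with 149 ± 25.1 CPM per kb (SD, n = 5) on the HFD and 241 ± 19.3 (SD, n = 6) under IMC, and it was above 98.1% of the 12289 genes with an exon length. Mpc2, Pdha1 and Dld followed, with 69.6, 70.3 and 65.1 CPM per kb in HFD mice and 98.8, 90.2 and 83.3 in IMC-treated mice. Mpc2 and Pdha1 overlapped in both groups, so their order is not resolved, and the ranges of Pdha1 and Dld overlapped although Pdha1 was the higher in each of the 11 mice. Pdhb, at 47.4 and 54.9 CPM per kb in the HFD and treated groups, was lower than Pdha1 although their proteins pair in equal numbers, and it overlapped Pdk4, at 39.8 and 49.6. Dlat had 26.9 and 35.9 CPM per kb and Pdk2 22.6 and 30.5. Pdk1, at 10.1 in both groups, and Mpc1, at 4.87 and 5.65, lay apart from all other members. The level of Mpc1 is uncertain because of its shared exon bases and its pseudogene. Pdk4 overlapped Dlat, and Dlat overlapped Pdk2, only in the treated group, and in each mouse the order Pdk4, Dlat, Pdk2 held.

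**Figure D3:**
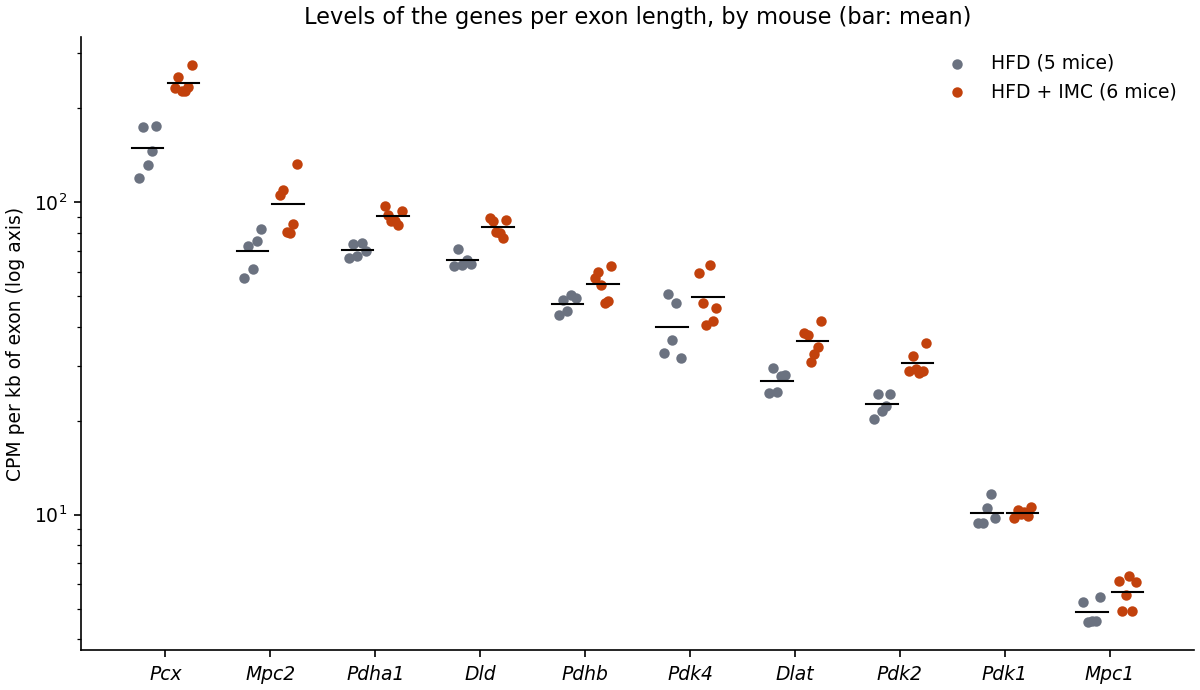
Level of each member in CPM per kb of exon on a log axis, with 1 point per mouse and a bar at the mean of 5 HFD or 6 HFD + IMC mice. Pcx lies above every other member in each mouse and Mpc1 lies below, where the level of Mpc1 is uncertain because of shared exon bases and a pseudogene.

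Pdk4 had the largest mean share of the kinase transcripts on this per-kilobase scale. It was 50.0 ± 4.83% (SD, n = 5) of the summed level of Pdk1, Pdk2, Pdk3 and Pdk4 on the HFD and 51.2 ± 5.14% (SD, n = 6) under IMC. The Pdk2 share was 28.9 ± 3.30% and 31.9 ± 3.96%, the Pdk1 share 13.0 ± 1.45% and 10.6 ± 0.992%, and the Pdk3 share 8.18 ± 1.19% and 6.31 ± 0.828%. The ranges of the groups overlapped for all 4 shares, and the shares were not tested.

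Several members varied together among mice of the same group. After the group means were subtracted, 38 of the 45 pairs of members had a Pearson r above 0, with a median of 0.50, over 11 mice that share their libraries and their scaling. The closest pairs were Dlat with Mpc2 (r = 0.93, Spearman rho = 0.81) and Pdk2 with Pcx (r = 0.91, rho = 0.84), and r was 0.92 and 0.91 without the 2 mice farthest from the median of Dlat and of Pdk2. Pdk1 and Mpc1 were the least alike, with r = -0.25. These correlations are descriptions and were not tested. The same count was not made over pairs of all genes, so the values do not show a trait particular to these members.

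Pcx followed the adipocyte markers closely. Its r with the mean of the 15 markers was 0.91 within groups (rho = 0.87), against 0.79 for Pdk2, 0.78 for Mpc2 and 0.75 for Dlat, 0.11 for Pdk4 and -0.16 for Pdk1. Pcx minus the marker mean was -0.69 ± 0.05 log2 CPM (SD, n = 5) on the HFD and -0.72 ± 0.09 (SD, n = 6) under IMC, a difference of -0.04 with a 95% interval from -0.25 to 0.17 (limma adjusted p = 0.734). The SD of Pcx among HFD mice was 0.25 before the marker mean was subtracted and 0.05 after, and among IMC-treated mice it was 0.11 before and 0.09 after. The marker mean itself was higher by 0.74 in IMC-treated mice, and relative to it the other 9 members were lower, from Mpc2 at -0.25 (adjusted p = 0.0403) and Pdk2 at -0.31 (adjusted p = 0.00626) to Pdk1 at -0.74 (adjusted p = 9.77e-06, all by limma). On this scale 90.9% of all genes were lower. The part of adipocyte, macrophage and muscle RNA in the differences between the groups was not tested.

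**Figure D4:**
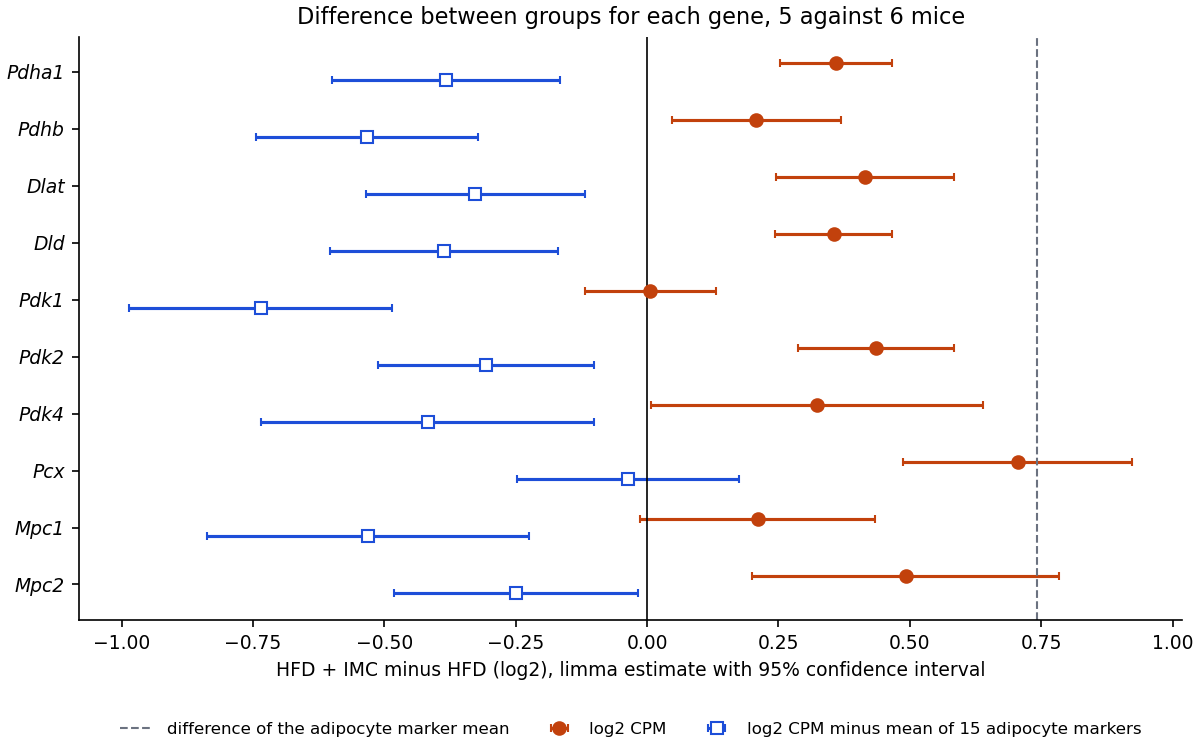
Difference between 6 HFD + IMC and 5 HFD mice for each gene on the log2 scale, with 95% confidence intervals from limma, for log2 CPM (filled) and for log2 CPM minus the mean of 15 adipocyte markers (open); the dashed line is the difference of that mean, 0.74. Pcx is at 0.71 and -0.04 on the respective scales, and the other called members are positive on the former scale and negative on the latter.

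The genes whose variation was most like that of each member were ranked by r within groups over the 11 mice. Taking the highest r from a list of 12787 genes gives high values by itself, and none was tested. For Pdhb the top genes included Mdh1 (r = 0.98) and Idh3g (r = 0.97). They encode malate dehydrogenase and an isocitrate dehydrogenase subunit. For Mpc2 they were Ndufs3, a complex I subunit, with r = 0.99, followed by Bok and Apmap. Dlat was most like Apmap (r = 0.95), Eci1 and Etfdh, the latter pair acting in fatty acid oxidation. The genes most like Pcx included Snrk (r = 0.96) and A530016L24Rik, and Pdk2 was closest to Ppp1r1a (r = 0.98), Lpar3 and Sugct. Pdha1 was closest to Strn3 (r = 0.96), Adrb1 and Arxes2. For Pdk4, Ipp reached r = 0.89, the lowest top value of the 10 members, followed by Klhl42 and Rfx7. Dld was closest to Klhl12 (r = 0.94), Zmat1 and D16Ertd472e. Pdk1 was closest to Epor (r = 0.95), Nmi and Rpl37a, and Mpc1 to Lrrc59 (r = 0.94), Commd5 and Banf1.

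The proteins that act directly on the complex were divided. Of the 5 listed partners, 3 were higher and 1 was lower, beside 20% and 21.0% of all genes. Pdha2, the testis form of Pdha1, was not listed. Pdhx, which anchors Dld in the complex, had a log2 fold change of 0.41 (SE 0.07, limma adjusted p = 0.000647), beside 0.41 for Dlat. The phosphatase genes moved apart, Pdp1 with -0.35 (SE 0.07, limma adjusted p = 0.00180) and Pdp2 with 0.55 (SE 0.09, limma adjusted p = 0.000375). Pdpr, a regulatory subunit of the phosphatase, had 0.38 (SE 0.09, limma adjusted p = 0.00344), and Pdk3, the other kinase, had -0.08 (limma adjusted p = 0.474).

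Genes that equip the enzymes with cofactors were mostly higher on the log2 CPM scale, on which 20% of all genes were higher and 21.0% lower. In the lipoylation list, 4 of 7 were higher and 0 lower, namely Mecr (0.60) and Oxsm (0.40) of mitochondrial fatty acid synthesis and Lipt1 (0.51) and Lias (0.35), which transfer and make lipoate. For thiamine and biotin, 4 of 6 were higher and 0 lower, among them the vitamin importer Slc5a6 (0.64), Btd (0.40), which recycles biotin, and Hlcs (0.27), which attaches biotin to Pcx. Of 7 genes of other complexes that use Dld, 6 were higher and 0 lower, led by Dhtkd1 (0.78) and Bckdhb (0.62).

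Upstream of the carrier, 4 of 12 genes that supply or interconvert pyruvate were higher and 2 were lower, beside 20% and 21.0% of all genes. The largest rises were those of Gpt (0.87), which makes pyruvate from alanine, and Ldhb (0.70), a lactate dehydrogenase subunit. The falls were those of the lactate exporter Slc16a3 (-0.66) and of Pkm (-0.32), the pyruvate kinase of most tissues. Downstream, 9 of 13 genes of the citrate route and of oxaloacetate use were higher and 1 was lower. Pck1, which turns oxaloacetate into phosphoenolpyruvate for glyceroneogenesis, rose most (1.30), followed by the dicarboxylate carrier Slc25a10 (0.70), and the aminotransferase Got1 fell (-0.33).

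Among 12 listed transcription factors known to act on kinase or carboxylase genes, 4 were higher and 3 were lower, again beside 20% and 21.0% of all genes. Ppara (0.99) and Pparg (0.70) rose most, and Pparg is also 1 of the 15 adipocyte markers. Usf1 (-0.33) and Usf2 (-0.22), factors that bind the E-box, were lower. Of 7 listed genes that fasting or fatty acids are known to induce with Pdk4, 4 were higher and 0 lower: Fgf21 (0.92), Plin5 (0.88), Ucp3 (0.87) and Angptl4 (0.33). Median log2 fold changes were 0.38 for the partners, 0.35 for lipoylation, 0.43 for the other complexes, 0.34 for thiamine and biotin, 0.10 for pyruvate supply, 0.37 for its products, -0.04 for the factors and 0.33 for the fasting-type genes, beside -0.03 over all genes.

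**Figure D5:**
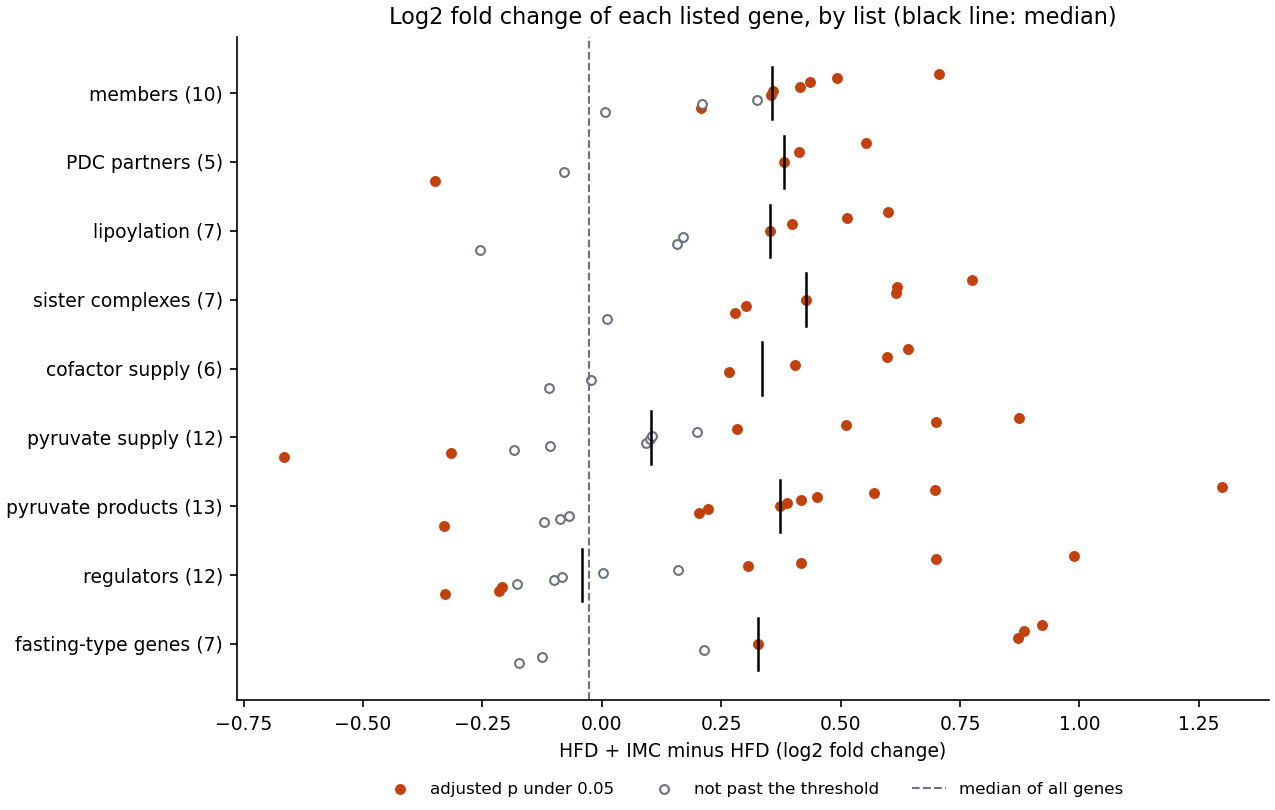
Log2 fold change (6 HFD + IMC against 5 HFD mice) of each listed gene by list, with the number of listed genes in brackets; filled points passed limma's adjusted p of 0.05, the black lines are list medians and the dashed line is the median of all genes, -0.03. Members and the partner, lipoylation, sister complex (users of Dld), cofactor and product lists have medians between 0.34 and 0.43 on the log2 CPM scale; relative to the adipocyte marker mean every value is lower by 0.74.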

How the data were processed

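RNA from gonadal WAT of 11 mice had been sequenced from directional mRNA libraries. The authors trimmed reads with Trim Galore, checked them with FastQC, aligned them to mm10 with STAR and counted reads per gene, removed genes under 1 CPM in all samples, scaled by the upper quartile with edgeR and deposited log2 CPM for 12787 genes. The same deposited table holds the authors' log2 fold change, mean, likelihood-ratio score, p-value and FDR, which were not used. The values of each mouse were whole numbers of reads plus a small constant, which gave the depth of 22320022 to 25155366 reads on listed genes. Intervals cover the spread between these mice, and PCR reads are not independent molecules.

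Groups came from the sample labels, and the labels give no batch. limma 3.58.1 (R 4.3.3, lmFit and eBayes with trend) was fitted to all genes with the group as the only factor, with Benjamini-Hochberg adjustment and a threshold of 0.05. It was tested on simulated data. Within-mouse differences of 8 gene pairs were tested two-sided by exact permutation, over all assignments of the mice to groups of 5 and 6. Exon lengths are from GENCODE M21, and gene coordinates and promoters from RefSeq GRCm38.p6, the build of the alignment. Exon lengths matched 96.1% of genes. Figures were drawn with matplotlib 3.10.9.

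The members and all lists were chosen with earlier results of these data known. All 10 members are named. From each list, genes with an adjusted p under 0.05 are named or, where there were over 4, the 2 largest rises and the 2 largest falls, plus direct partners of a member. For each member, the 3 genes most like it are named. A few genes that this rule names are not reported here. Alternatives were leaving out each mouse, limma without trend, limma voom on the recovered reads, an added constant of 2 reads, a minimum mean of 4 log2 CPM, total-count and median-of-ratios scaling, and values relative to the adipocyte marker mean.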

Additional observations from a re-analysis of the deposited data

How the results depend on the processing

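Relative to the adipocyte marker mean, 0 members were called higher and 9 lower, with log2 differences of -0.38 for Pdha1, -0.53 for Pdhb, -0.33 for Dlat, -0.39 for Dld, -0.74 for Pdk1, -0.31 for Pdk2, -0.42 for Pdk4, -0.036 for Pcx, -0.53 for Mpc1 and -0.25 for Mpc2. By construction every gene is shifted by -0.74 there, and 90.9% of all genes were lower. Total-count and median-of-ratios scaling shifted the median of all genes by -0.03 and 0.01. Pdk1, near 0, was -0.026 under total-count scaling and ran from -0.0196 to 0.0579 with 1 mouse left out. Pdhb (0.17 to 0.25 with 1 mouse left out) was also not called under total-count scaling (0.18) or without the trend (0.21). With 1 mouse left out, 6 to 7 members were called higher and 0 lower, Pdk1 minus Pdk2 ran from -0.48 to -0.37, Pcx minus Pdha1 from 0.29 to 0.41, Pcx minus Mpc1 from 0.39 to 0.58 and Pdk4 minus Pdha1 from -0.118 to 0.0433. Their adjusted p exceeded 0.05 in 4, 4 and 8 of 11 fits for the first, the second and the third, where fewer assignments raise the smallest exact p. Mpc1 was not tested under the minimum of 4 log2 CPM. All other called members kept their direction and call under every alternative except the marker mean. No paired analysis was possible because the mouse numbers do not repeat between the groups. Depth limits only Mpc1, at 101 to 151 reads.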

Other observations

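Other markers were counted for the same tissue, where 20% of all genes were called higher and 21.0% lower. Of 9 progenitor markers 0 were higher under IMC and 6 were lower, and of 5 listed mesothelial markers 0 were higher and 1 lower. Of 8 endothelial markers 1 was higher and 0 lower. Of 9 brown or beige adipocyte markers 6 were listed, 2 of them higher and 0 lower, while Ucp1, Ppargc1a and Zic1 were not listed, and their summed level was 16.8 to 22.0 CPM in HFD mice and 20.9 to 28.3 in IMC-treated mice.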
